A study of Arabidopsis thaliana with 4 samples.

Results

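The 10 genes described here encode components of the Polycomb machinery of Arabidopsis thaliana, LHP1 (AT5G17690, listed as TFL2 in the gene table), CLF (AT2G23380), SWN (AT4G02020), MEA (AT1G02580), FIE (AT3G20740), EMF2 (AT5G51230), VRN2 (AT4G16845), MSI1 (AT5G58230), BMI1A (AT2G30580, listed as DRIP2) and RING1A (AT5G44280). They are 10 of 27444 nuclear protein-coding genes and were picked by name, with earlier results of these data known. A peak was counted at a gene when it overlapped the gene body, or 1 kb on either side of it, by at least 1 bp. This gave 43 peaks, of which 2 came from ODD 1, 29 from ODD 2, 8 from EVEN 1 and 4 from LACZ 1.

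In ChIRP-seq (chromatin isolation by RNA purification, then sequencing), crosslinked chromatin is pulled down with biotinylated oligonucleotides complementary to an RNA, and the DNA that comes with it is sequenced. The RNA targeted here was the long noncoding RNA APOLO, and all 4 libraries came from Col-0 plants carrying full-length APOLO behind the constitutive 35S promoter, kept on solid medium under long days, with no other treatment given in the labels. ODD (2 libraries, ODD 1 and ODD 2) and EVEN (1 library, EVEN 1) name 2 sets of probes that target APOLO, and LACZ (1 library, LACZ 1) names the control probes. Nothing on tissue, plant age, the number of transgenic lines or the pooling of plants is given in the sources used here, and no library from plants without the transgene was analysed here.

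Polycomb proteins keep genes silent through marks on histones. Polycomb repressive complex 2 (PRC2) places trimethylation on lysine 27 of histone H3. It joins a SET-domain methyltransferase (CLF, SWN or MEA) with a zinc finger protein (EMF2, VRN2 or FIS2) and the WD40-repeat proteins FIE and MSI1. BMI1A and RING1A are RING finger proteins of PRC1, which places ubiquitin on histone H2A. LHP1 has a chromodomain that binds trimethylated lysine 27 and is a known protein partner of APOLO RNA. The question asked here of the peak lists is different from that of protein binding. It is whether the DNA of the genes that encode these proteins was recovered with APOLO probes, and whether the ODD and EVEN probes recovered the same stretch.

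The ODD 1 and EVEN 1 peaks met at none of the 10 genes, against 13.3% of all protein-coding genes. At 5 genes, LHP1, MEA, FIE, BMI1A and RING1A, an EVEN 1 peak overlapped a peak of the second ODD library with no LACZ 1 peak over it, against 31.0% of all genes. ODD 1 had a peak only at EMF2 and BMI1A, 2 genes of 10 against 48.9% of all genes. With only 10 genes, none of these 3 counts is told apart from the share of all genes by its counting error. VRN2 had no peak in any of the 4 lists. EVEN and LACZ have no replicate, and a list holds no value for a place without a call, so the comparisons are counts without a test. Fold enrichments are the authors' values within 1 library, and a rank in percent counts from the highest fold of that library's nuclear list.

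**Figure D1:**
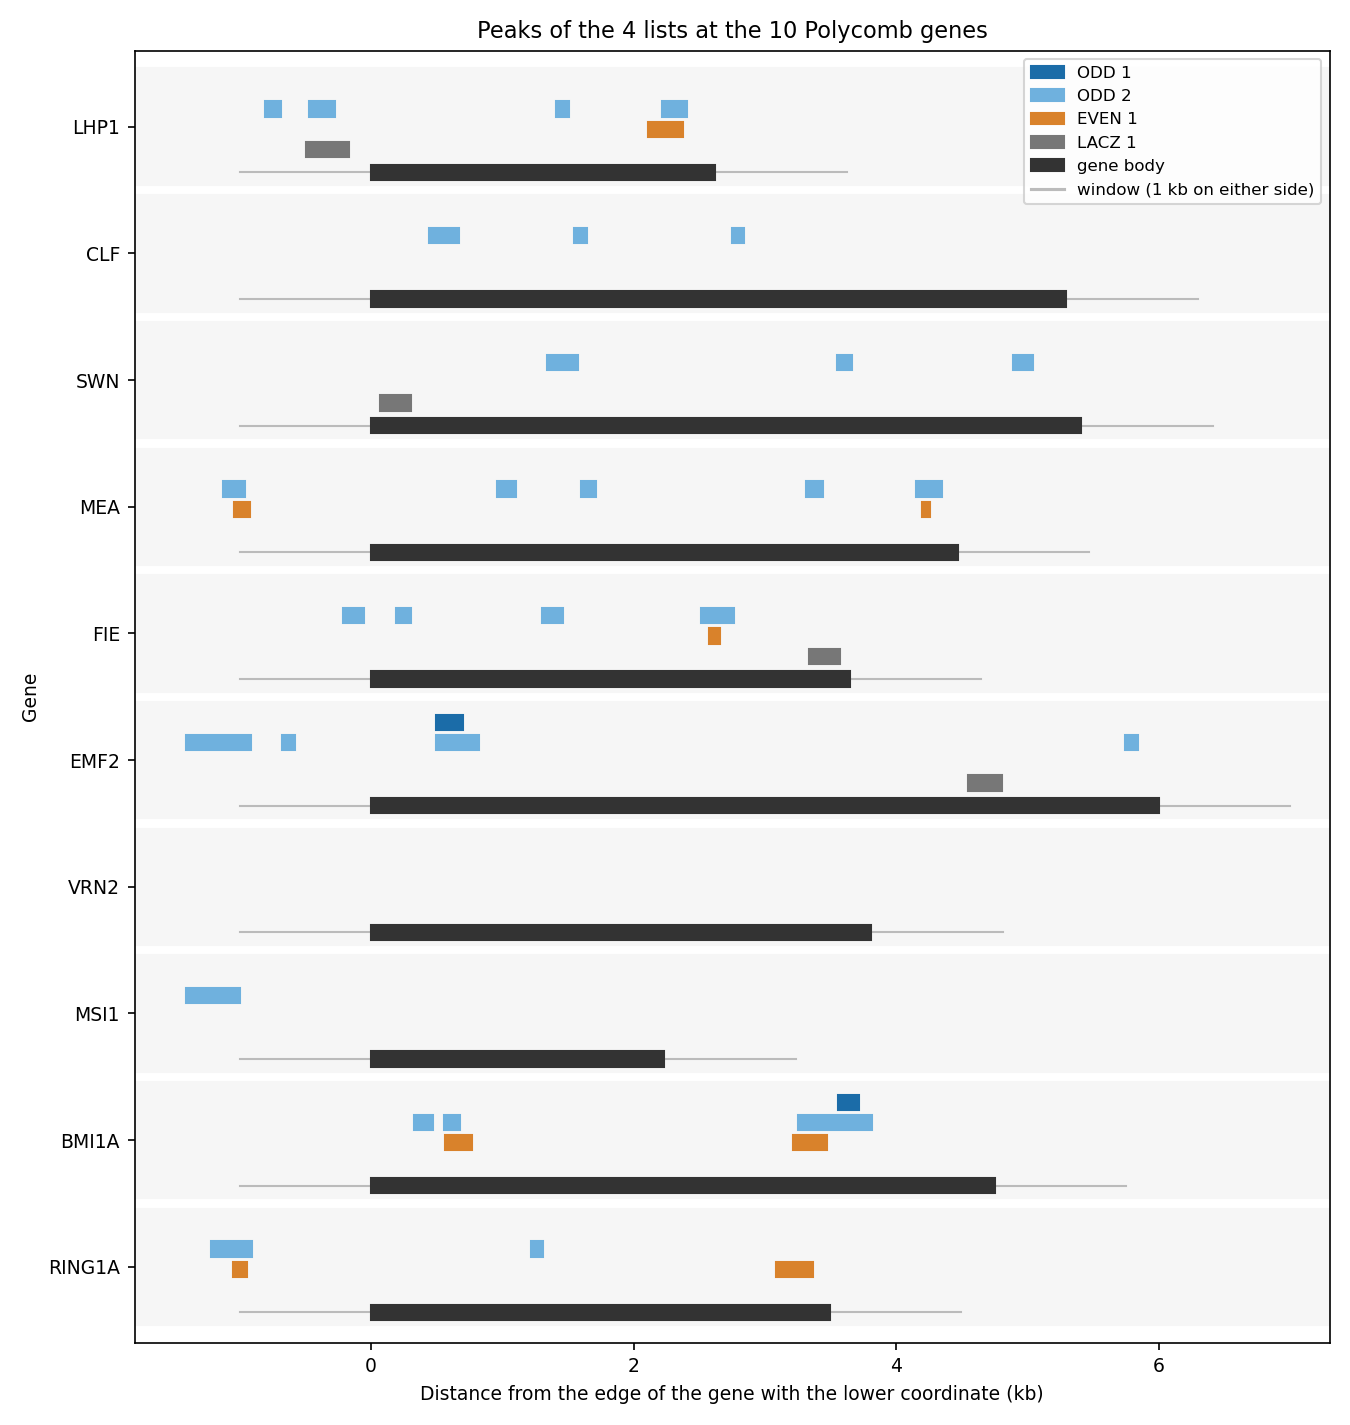
Peaks of ODD 1, ODD 2, EVEN 1 and LACZ 1 (coloured boxes, to scale) at each gene, by distance in kb from the edge of the gene body that has the lower coordinate; black bars are gene bodies and grey lines the windows. The 2 ODD 1 peaks lie at EMF2 and BMI1A, the latter beside an EVEN 1 peak that it does not touch, and VRN2 is empty.

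The counts per library were near those of any gene, apart from ODD 1. ODD 1 had a peak at 2 of the 10 genes, against 48.9% of all protein-coding genes. The exact (Clopper-Pearson) 95% interval of that share, which covers counting error only, ran from 2.52% to 55.6% and so included the share of all genes. ODD 2 had a peak at 9 of 10 against 92.8%, EVEN 1 at 5 of 10 against 55.3% and LACZ 1 at 4 of 10 against 41.3%. The 10 genes were longer than most, with a median of 4140 bp against 2078 bp. Among the 11494 genes as long as these, from 2234 to 6001 bp, a background added after the counts were seen, 57.1% had an ODD 1 peak, a share just above the upper limit of that interval, and 61.1% an EVEN 1 peak. Per kb of gene window, the 10 genes held 0.0324 ODD 1 peaks against 0.151 over all protein-coding genes, 0.130 EVEN 1 peaks against 0.194, 0.470 ODD 2 peaks against 0.545 and 0.0648 LACZ 1 peaks against 0.113. The density at these genes was therefore below that of all gene windows in each of the 4 lists, the control list included.

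An overlap of ODD 1 with EVEN 1 was found at 0 of 10 genes, which allows a share of up to 30.0%, and the 13.3% found over all genes, or 14.7% over genes of like length, lies below that limit. Without a LACZ 1 peak over the ODD 1 peak the share of all genes was 10.9%, and with an ODD 2 peak there as well it was 10.7%, again with 0 of the 10. The overlap of ODD 2 with EVEN 1 was found at 5 of 10 genes against 38.0% of all genes, or against 41.2% of genes of like length. With the ODD 2 peak free of LACZ 1 the count stayed at 5 of 10, against 31.0% of all genes. Over all genes, 8502 of the 10418 with the overlap had it free of LACZ 1. The exact 95% interval for 5 of 10, from 18.7% to 81.3%, held the 38.0%, 41.2% and 31.0%. All 5 genes with both an ODD 2 and an EVEN 1 peak had such an overlap, against 70.5% of the genes with both. ODD 1 and ODD 2 overlapped at 2 of 10 genes against 47.4% of all genes. EVEN 1 overlapped LACZ 1 at 0 of 10 genes against 11.4%, and ODD 2 overlapped LACZ 1 at 1 of 10 against 24.5%.

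**Figure D2:**
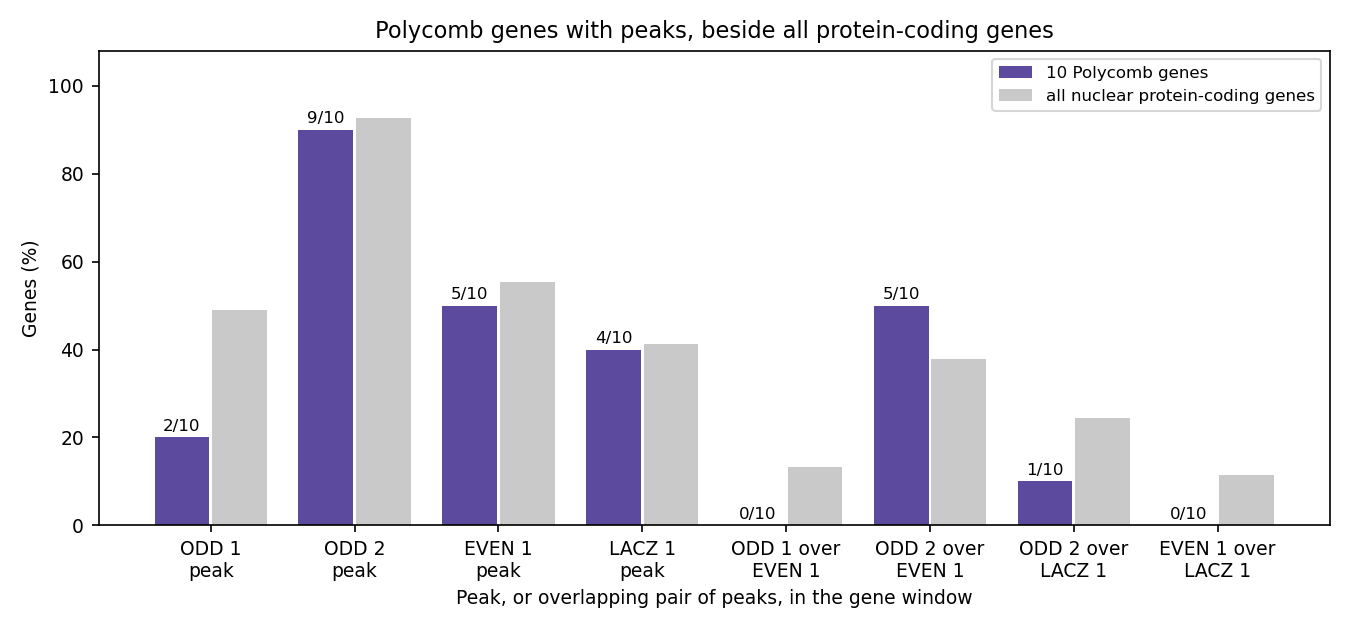
Share of genes in percent with a peak of each list, or an overlapping pair of peaks, for the 10 Polycomb genes (purple, with the count over the bar) and all 27444 nuclear protein-coding genes (grey). ODD 1 peaks stand at 2 of 10 genes against 48.9%, while the ODD 2, EVEN 1 and LACZ 1 counts are close to the grey bars.

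LHP1 was recovered with the EVEN probes and in the second ODD library, not in ODD 1. The EVEN 1 peak lay in the gene body on chromosome 5, at 5829251 to 5829518, with 18 fragments at its summit, a fold of 4.26 and a −log10 q of 5.37. Its rank was 15.2% of the EVEN 1 list, the second best rank of the 8 EVEN 1 peaks at these genes. The ODD 2 peak at 5829356 to 5829548, with a fold of 3.83 and a rank of 41.3%, shared 163 bp with it, and the summits were 143 bp apart. The nearest ODD 1 peak lay 3680 bp from the EVEN 1 peak and 1571 bp from the edge of the gene. A second ODD 2 peak in the gene body, at 5828548 to 5828650, had a fold of 3.05.

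The control list also had a peak beside LHP1, in the flank. Its limits were 5826648 to 5826970 and its fold 2.99, and the −log10 q of 5.37 was the highest of the 4 LACZ 1 peaks at these genes. An ODD 2 peak of fold 2.45, at 5826666 to 5826865, lay wholly inside it. Both overlapped the neighbouring gene AT5G17680, and so did a further ODD 2 peak with a fold of 2.70. The LACZ 1 peak was 2280 bp from the EVEN 1 peak. LHP1 thus held an ODD 2 and EVEN 1 stretch without a control peak in the gene body, and an ODD 2 and LACZ 1 stretch in the flank.

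At the PRC2 methyltransferase genes, EVEN 1 peaks were found at MEA only. CLF, the main sporophytic methyltransferase gene, had 3 ODD 2 peaks in its gene body and nothing else. Their folds were 3.52, 2.95 and 2.49, with ranks from 47.7% to 86.9% of the ODD 2 list. The nearest ODD 1, EVEN 1 and LACZ 1 peaks lay 3128, 2738 and 2618 bp from the edge of the gene. SWN, which acts partly in place of CLF, had 3 ODD 2 peaks in the gene body, with folds of 3.99, 2.91 and 2.38, and 1 LACZ 1 peak. That LACZ 1 peak (chromosome 4, 886647 to 886880, fold 2.87) was 1041 bp from the nearest ODD 2 peak. SWN was the gene farthest from ODD 1, whose nearest peak was 8464 bp away.

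MEA, the methyltransferase gene known for its imprinted role in the endosperm, had 5 ODD 2 and 2 EVEN 1 peaks and no LACZ 1 peak. In the gene body an EVEN 1 peak of 56 bp on chromosome 1 (548931 to 548986, fold 3.68) lay inside an ODD 2 peak (548879 to 549083, fold 3.44). Their summits were 19 bp apart, the closest of the 7 overlapping ODD 2 and EVEN 1 pairs. In the flank, the EVEN 1 peak at 543688 to 543812 (fold 3.05) shared 82 bp with the ODD 2 peak at 543607 to 543769 (fold 3.31). Both overlapped the neighbouring gene AT1G02575. The highest ODD 2 fold at MEA, 4.77 at 548048 to 548171, had no EVEN 1 peak over it. The nearest ODD 1 peaks were 6832 and 1589 bp from these EVEN 1 peaks.

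Of the genes for the other PRC2 subunits, FIE alone had an EVEN 1 peak. On chromosome 3 the EVEN 1 peak (7251379 to 7251464, fold 2.97, rank 81.0%) was the weakest of the 8 and lay wholly inside an ODD 2 peak (7251323 to 7251575, fold 5.43). A second ODD 2 peak of nearly the same fold, 5.30 at 7250113 to 7250268, had no EVEN 1 peak over it. A LACZ 1 peak in the same gene body (7252144 to 7252378, fold 3.09) lay 679 bp from the EVEN 1 peak and did not touch the ODD 2 peak. The fold of the control peak within its own list ranked at 39.8%, better than that of the EVEN 1 peak within EVEN 1.

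EMF2 was recovered by both ODD libraries and not with the EVEN probes. The ODD 1 peak on chromosome 5, at 20824137 to 20824343, had 10 fragments at its summit, a fold of 4.46 and a rank of 63.4%. It lay wholly inside the ODD 2 peak at 20824135 to 20824467, whose fold of 8.91 was the highest at any of the 10 genes and ranked at 6.87% of the ODD 2 list. The nearest EVEN 1 peak was 10751 bp away, so at EMF2 the probe sets failed to meet because no EVEN 1 peak was called in the gene or its flanks. The LACZ 1 peak at EMF2 (20828189 to 20828444, fold 2.57) was 3845 bp from the ODD 1 peak. Of the other 3 ODD 2 peaks, 2 overlapped the neighbouring gene AT5G51220, and their folds were 3.82 and 2.74.

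VRN2, the zinc finger gene of the vernalization response, had no peak in any list, which was the case for 4.62% of all protein-coding genes. The nearest peaks lay 1003 bp (ODD 2), 1087 bp (EVEN 1), 1467 bp (ODD 1) and 1495 bp (LACZ 1) from the edge of the gene, all beyond the window. MSI1, a WD40-repeat gene, had a single ODD 2 peak. It spanned 23554604 to 23555015 of chromosome 5, with a fold of 3.70, and overlapped the neighbouring gene TTL, entering the window of MSI1 only at its margin. No peak of any list was therefore found in the gene bodies of VRN2 and MSI1.

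BMI1A was the only gene with both an ODD 1 and an EVEN 1 peak, and they missed each other by 78 bp. On chromosome 2 the EVEN 1 peak spanned 13029127 to 13029385, with 17 fragments at its summit, a fold of 4.58 and a rank of 11.0%, the best of the 8 EVEN 1 peaks. The ODD 1 peak spanned 13029464 to 13029623, with 12 fragments, a fold of 5.55 and a rank of 37.3%. Their summits were 364 bp apart. A single ODD 2 peak (13029163 to 13029721, fold 8.56, rank 7.95%) held the whole ODD 1 peak and 223 bp of the EVEN 1 peak. Its summit lay 48 bp from that of ODD 1 and 316 bp from that of EVEN 1. The nearest LACZ 1 peak was 4534 bp from the ODD 2 peak.

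The gap at BMI1A was short beside those of other genes. Among the 8588 genes with both an ODD 1 and an EVEN 1 peak, the peaks overlapped in 42.5%. In the remaining 4940 genes the median gap was 702 bp, with quartiles of 239 and 1476 bp, and 10.6% had a smaller gap than BMI1A. A second EVEN 1 peak at BMI1A (13026476 to 13026681, fold 3.85) overlapped an ODD 2 peak (13026469 to 13026584) by 109 bp. That ODD 2 peak was weak, with a fold of 2.78, while the stronger ODD 2 peak 93 bp from the EVEN 1 peak, with a fold of 4.77, did not reach it.

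RING1A, the PRC1 partner of BMI1A, had its strongest ODD 2 signal outside the gene. The ODD 2 peak on chromosome 5, at 17834590 to 17834899, had a fold of 8.05 and a rank of 9.88%, and the EVEN 1 peak (17834757 to 17834868, fold 3.16) lay wholly inside it. Both overlapped the neighbouring gene AT5G44270 and entered the window of RING1A from the flank. In the gene body an EVEN 1 peak (17838895 to 17839176, fold 3.53) was the only one of the 8 EVEN 1 peaks without an ODD 2 peak over it. The nearest ODD 2 peak was 1773 bp away, with a fold of 2.47. Within the body of RING1A itself the ODD and EVEN probes therefore did not meet in any library.

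**Figure D3:**
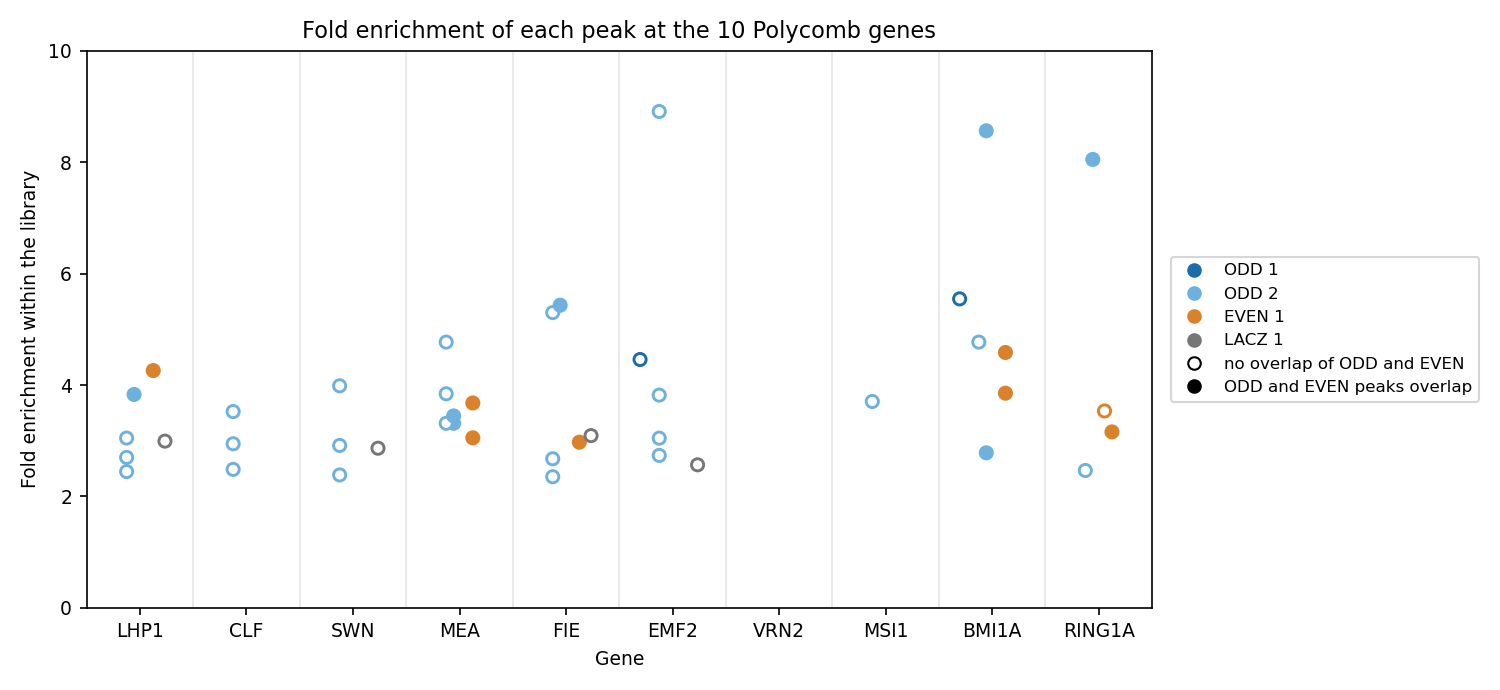
Fold enrichment of each of the 43 peaks within its own library, by gene; filled points are ODD and EVEN peaks that overlap each other, and open points have no such overlap. The 3 ODD 2 peaks with a fold of 8 or more stand at EMF2 (8.91), BMI1A (8.56) and RING1A (8.05), and the one at EMF2 has no EVEN 1 peak over it.

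Peaks at these genes were of ordinary strength for their lists. Member folds ran from 2.35 to 8.91 in ODD 2, with a median of 3.31 against 3.44 over the whole list. In EVEN 1 they ran from 2.97 to 4.58 with a median of 3.61 against 3.41, and in LACZ 1 from 2.57 to 3.09 with a median of 2.93, as in the whole list (2.93). The folds of 4.46 and 5.55 in ODD 1 stood on either side of its median of 4.93. ODD 2 peaks that overlapped EVEN 1 had a median fold of 3.83 over 7 peaks, and the other 22 had one of 3.05. The whole ODD 2 list showed a difference of the same direction, with medians of 3.90 and 3.31.

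Peak by peak, the EVEN 1 peaks at these genes mostly overlapped ODD 2, and none overlapped ODD 1 or the control. No interval was computed for the peak counts, which are small, and several peaks share a gene. Whether these counts differ from the shares of the whole lists was therefore not assessed. Of the 8 EVEN 1 peaks, 7 overlapped ODD 2, against 59.5% of the whole EVEN 1 list, 0 overlapped ODD 1 against 19.1%, and 0 overlapped LACZ 1 against 18.6%. Of the 5 genes with an EVEN 1 peak, 4 had no ODD 1 peak, against 43.5% of all such genes. Distances to the nearest ODD 1 peak ran from 0.078 to 6.83 kb with a median of 3.23 kb, against a median of 1.46 kb over all EVEN 1 peaks. Of the 29 ODD 2 peaks, 7 overlapped EVEN 1, against 19.1% of the whole list, 2 overlapped ODD 1, against 24.7%, and 1 overlapped LACZ 1, against 13.0%. Both ODD 2 peaks that overlapped ODD 1 had a fold above 8. Of the 3 ODD 2 peaks with a fold of 8 or more, 2 overlapped ODD 1 against 87.2% of such peaks in the whole list, and the exception was RING1A. The same number, 2 of 3, overlapped EVEN 1, against 31.6%, and here the exception was EMF2. None of the 26 below a fold of 8 overlapped ODD 1, against 17.7%, and 5 of them overlapped EVEN 1, also against 17.7%. Both ODD 1 peaks overlapped ODD 2, against 94.8% of the ODD 1 list, and neither overlapped EVEN 1, against 24.0%, or LACZ 1, against 13.4%. Of the 4 LACZ 1 peaks, 1 overlapped ODD 2, against 56.0%, and 0 overlapped EVEN 1, against 26.6%.

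**Figure D4:**
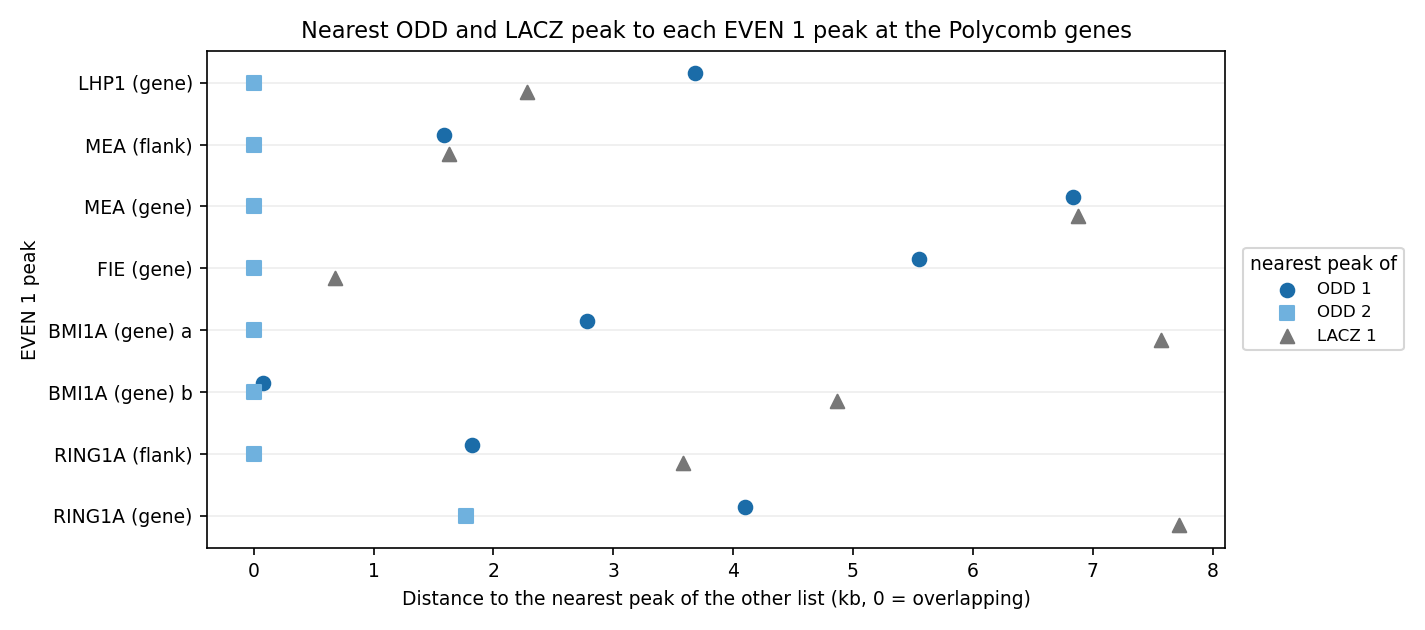
Distance in kb from each of the 8 EVEN 1 peaks at the Polycomb genes to the nearest ODD 1 (circle), ODD 2 (square) and LACZ 1 (triangle) peak, with 0 for an overlap; the 2 peaks in the body of BMI1A are marked a and b in the order of their coordinates. ODD 2 is at 0 for 7 of 8, and the ODD 1 peak nearest to any of them is 0.078 kb away, at BMI1A.

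The overlap of the probe sets at these genes thus rests on 1 library. Without ODD 2, the number of genes with an ODD peak over an EVEN 1 peak went from 5 (38.1% of all genes) to 0 (13.3%). Without ODD 1 it stayed at 5 (38.0%). Over all genes too, 10418 of the 10455 genes with an overlap had it with ODD 2. ODD 2 is also the library with the longest list, 58146 nuclear peaks covering 13.0 Mb, against 16126 peaks in ODD 1, 20470 in EVEN 1 and 12546 in LACZ 1. Relative fragment numbers, estimated from the lowest local background divided by the shortest peak, were 1 in ODD 1, 2.94 in ODD 2, 2.19 in EVEN 1 and 1.31 in LACZ 1. The part of depth in the difference between the ODD libraries was not tested. With −log10 q of at least 5 in every list, the overlap of ODD 2 with EVEN 1 was left at LHP1 and BMI1A, and with all lists cut to equal length at BMI1A and RING1A. BMI1A was the only gene of the 5 found under both. Shares of all genes under these 2 settings are not given here, so the losses cannot be set against those of genes at large.

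Other Polycomb genes were compared from a list of 28, among them paralogues of these genes, the PRC1-associated EMF1, the PHD finger genes of vernalization and factors that recruit PRC2. ODD 1 peaks stood at 14 of 28 (50%, against 48.9% of all genes) and ODD 2 peaks at all 28 (against 92.8%). EVEN 1 peaks stood at 23 (82.1%, against 55.3%) and LACZ 1 peaks at 19 (67.9%, against 41.3%). The control list, like EVEN 1, thus lay above its share of all genes there. The exact intervals, 63.1% to 93.9% for EVEN 1 and 47.6% to 84.1% for LACZ 1, did not hold those shares. The lengths of these 28 genes are not given here. ODD 2 overlapped EVEN 1 at 15 of 28 (53.6%, against 38.0% of all genes). With the ODD 2 peak free of LACZ 1 the count was 11 (39.3%, against 31.0%). The 10 genes had 5 by either count. The exact intervals for the 28, 33.9% to 72.5% and 21.5% to 59.4%, held those shares of all genes. ODD 2 also overlapped LACZ 1 at 12 of 28 (42.9%, against 24.5%). ODD 1 overlapped EVEN 1 at 3 of 28, near the 13.3% of all genes. They were MSI4, EMF1 and UBP12, named here after their values were seen. In all 3 a LACZ 1 peak lay over the ODD 1 peak, against 18.0% of all genes with such an overlap, so that 0 of 28 had the overlap free of the control, against 10.9% of all genes. A count of 0 in 28 allows a share of up to 10.7% by the limit of 3 counts and 12.3% by the exact interval. The 10.9% of all genes lies just above the first limit and below the second. The exact interval thus does not tell the count apart from the share of all genes. At MSI4 (AT2G19520, also FVE), a WD40-repeat relative of MSI1, the fold was 6.62 for the ODD 1 peak (chromosome 2, 8455947 to 8456128), 5.25 for the EVEN 1 peak and 5.67 for the LACZ 1 peak. At EMF1 the folds were 5.44, 3.16 and 2.95 in the same order, and at UBP12, a ubiquitin protease gene, 5.67, 4.41 and 2.63.

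Among the paralogues of the 10 genes, RING1B had the pattern of RING1A over the 4 lists, one shared by 12.4% of all protein-coding genes. BMI1B, BMI1C and FIS2 did not have the pattern of their counterparts, and MSI2, MSI3, MSI4 and MSI5 did not have that of MSI1. BMI1B had 1 ODD 2 peak and no other, with a fold of 3.05, and BMI1C had 3 ODD 1 peaks, the highest with a fold of 10.9, and no EVEN 1 peak. RING1B had 2 ODD 2 and 2 EVEN 1 peaks and, like RING1A, neither an ODD 1 nor a LACZ 1 peak, and no ODD 2 peak overlapped EVEN 1 there. FIS2, the seed counterpart of EMF2 and VRN2, had peaks in ODD 2, EVEN 1 and LACZ 1 and none in ODD 1. That pattern over the 4 lists was also that of LHP1 and FIE. It was shared by 5 of the 28 other Polycomb genes, VAL1, FIS2, VRN5, MSI5 and BPC6, and by 10.2% of all protein-coding genes.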

How the data were processed

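Per the submitters' processing notes, the authors used CASAVA 1.8.2, Trimmomatic, Bowtie2 and MACS2 on TAIR10; neither calling options nor a control used by MACS2 is given in the sources used here. The deposited lists, per the file headers, give for each peak its limits, summit, pileup signal at the summit, fold enrichment (a ratio of pileup to local background), and its p-value and q-value as −log10. The highest q-value was 0.0496. Read totals were not used here; fragment numbers are relative, and intervals cover counting error only. Gene bodies came from a RefSeq table of TAIR10.1, and none of its coordinates are printed. The table fitted the peaks: shifted by up to 3000 bp either way, it had the fewest summits within 200 bp of gene edges when unshifted (0 bp), in 10 of 10 chromosome parts. The table holds no strand. Organelle peaks were left out. Overlaps were counted with Python 3.11.15 (pandas 2.3.3, scipy 1.17.1), and the counting recovered 6 of 6 rules on simulated data of 400 genes. All peaks at the 10 genes were eligible for naming; positions are given for the strongest and for those where ODD and EVEN overlap or lie nearest, and further peaks are named to complete a gene. In the other lists, the rule named genes with an ODD 1 and EVEN 1 overlap free of LACZ 1 and genes with the LHP1 pattern. MSI2, MSI3, MSI4, EMF1, UBP12, BMI1B, BMI1C and RING1B were named after their values were seen. The genes and lists were chosen with earlier results of these data known. Whether ODD libraries came from separate plants is not stated in the labels.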

Additional observations from a re-analysis of the deposited data

How the results depend on the processing

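Of 107 values recomputed under other settings, 79 stayed within 1.5 times the reported count and 28 did not. The 79 include counts of 0 under settings that could only lower a count. The cause of the 28 moves was not tested. Apart from leaving out an ODD library, shares of all genes under the other settings are not given here. The moves therefore cannot be set against those of genes at large. With a window of 2 kb, ODD 1 had peaks at 4 of the 10 genes in place of 2, LHP1 and VRN2 being added. With −log10 q of at least 5, the count was 1 in ODD 1, 2 in EVEN 1 and 1 in LACZ 1, and an ODD peak overlapped EVEN 1 at 2 genes in place of 5, also without LACZ 1. With lists cut to equal length, ODD 2 had peaks at 3 genes in place of 9 and the ODD and EVEN overlap was found at 2, also without LACZ 1. With no LACZ 1 peak allowed in the whole window, 3 of the 5 genes were left, MEA, BMI1A and RING1A, a setting chosen for ODD 2 after seeing the data. When a gap of up to 100 bp or up to 500 bp counted as meeting, ODD 1 met EVEN 1 at 1 gene in place of 0, BMI1A, with 1 also free of LACZ 1 and 1 also in ODD 2. Overlap of ODD 1 with EVEN 1 stayed at 0 with a window of 2 kb and with 200 bp summit windows, settings that could have added one. It was also 0 with gene bodies alone, windows of 500 bp, −log10 q of at least 5, equal length and 50% overlap. Those settings can only remove overlaps, so their 0 was fixed by the main count of 0. Leaving out an ODD library gave 0 genes (without ODD 2) to 5 genes (without ODD 1) with an ODD peak over EVEN 1, and the gap of 78 bp at BMI1A became 0 without ODD 1. For the 28 other Polycomb genes, −log10 q of at least 5 gave 4 genes in EVEN 1 and 7 in LACZ 1, and equal length gave 16 in ODD 2 and 15 in EVEN 1. Their ODD 1 and EVEN 1 overlap was 6 with 2 kb and 9 with a gap of up to 500 bp, in place of 3. Free of LACZ 1 it was 2 with 2 kb, 1 with −log10 q of at least 5, 1 with a gap of up to 100 bp and 5 with one of up to 500 bp, in place of 0. No paired analysis was possible because the probe groups share only replicate number 1 and no test was run.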

Other observations

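Genes that act against Polycomb, a list of 14 with histone demethylases, trithorax-group methyltransferases and chromatin remodellers, had ODD 1 peaks at 11 against 48.9% of all genes, EVEN 1 peaks at 9 against 55.3% and LACZ 1 peaks at 5 against 41.3%. The last 2 counts are near those shares. Gene lengths of this list and of the DNA methylation list are not given here. Among genes as long as the Polycomb component genes, 57.1% had an ODD 1 peak and 61.1% an EVEN 1 peak. ODD 1 overlapped EVEN 1 without LACZ 1 at JMJ13 and SYD, 2 of 14 against 10.9% of all genes. At JMJ13 (AT5G46910), a demethylase gene for trimethylated lysine 27 of histone H3, the fold was 6.97 for the ODD 1 peak (chromosome 5, 19046562 to 19046832), 6.40 for the EVEN 1 peak (19046491 to 19046863) and 9.30 for the ODD 2 peak over it. At SYD (AT2G28290), a SNF2-type remodeller gene, the ODD 1 peak (chromosome 2, 12059596 to 12059674, fold 4.94) shared only its margin with the EVEN 1 peak (12059540 to 12059600, fold 2.63). LHP1 and the other 9 Polycomb component genes had no such overlap. DNA methylation genes, a list of 14, had it at 5, in order of the ODD 1 fold RDR2 (12.3), CMT3 (7.09), ROS1 (6.45), AGO4 (6.14) and DDM1 (6.05). The control list also stood high at these genes, with LACZ 1 peaks at 12 of 14 (85.7%, against 41.3% of all genes) and an overlap of ODD 2 with LACZ 1 at 10 of 14 (71.4%, against 24.5%). The lists were not compared with a test.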
